A study of Mus musculus with 12 samples.

Results

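Integrin subunits are the receptor chains through which glomerular cells hold on to the matrix around them. The genes described here were 10 subunits, the alpha subunits Itga1, Itga3, Itga5, Itga8, Itga9 and Itgav and the beta subunits Itgb1, Itgb3, Itgb5 and Itgb8, picked by gene symbol from the 26264 symbols counted in isolated mouse glomeruli. All 10 had counts high enough to be tested among 17002 genes. Glomeruli came from male mice, 8 weeks old, of the BALB/cAjcl (Ajcl) and BALB/cByJcl (ByJcl) substrains of the albino BALB/c strain. In each substrain 3 libraries were from untreated baseline animals and 3 from animals killed on Day 5 after a single intravenous dose of adriamycin (ADR, doxorubicin) of 10 mg/kg, so that the Day 5 animals were set against animals labelled as untreated. The protocol also mentions controls given saline, but no library is labelled as one. Both substrains are inbred stocks for which the study names no engineered mutation. They share the ADR dose, the age and the method of isolation, in which magnetic beads lodge in the capillaries before collagenase digestion. The labels number the replicates but do not say how many animals a library holds, so the p-values measure the spread between libraries. The glomerular fraction holds podocytes, endothelial cells and mesangial cells, and in such bulk RNA fewer cells of a type and less RNA per cell cannot be told apart.

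An integrin is a pair of 1 alpha and 1 beta chain, and the pair sets the ligand. Itgb1 pairs with Itga1 (a collagen receptor of mesangial cells), Itga3 (the laminin receptor that anchors podocytes to the glomerular basement membrane), Itga5 (the fibronectin receptor), Itga8 (a mesangial receptor for nephronectin) and Itga9 (a receptor for tenascin and EMILIN proteins). Itgav pairs with Itgb1, Itgb3, Itgb5 or Itgb8 to bind vitronectin, fibronectin and the latent form of TGF-beta. Podocytes that lose the laminin receptor detach, and podocyte injury is the first lesion of ADR nephropathy.

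Total counts per library ranged from 42198416 to 54687045. An Ajcl Day 5 library, replicate 1, was judged in the study to be less pure in glomeruli and was left out of the fit, which left 11 libraries, and values with all 12 are given where they matter. Its summed podocyte markers (12 genes) came to 12739 CPM (counts scaled to library size) against 18770 and 14192 in the other Ajcl Day 5 libraries, and its summed proximal tubule markers (8 genes) to 3951 CPM against 2075 and 1591. All of the 12 podocyte, 10 endothelial and 10 mesangial markers were detected, with none at 0 in all libraries. Summed endothelial markers ran from 12183 to 17017 CPM and summed mesangial markers from 1951 to 3226 CPM. CPM here and below were scaled by TMM, which sets the library size from the bulk of genes. Baseline and Day 5 counts were deposited in separate tables, so a difference in how the tables were made cannot be told apart from ADR.

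Levels of different genes were compared per kb of exon, as TMM-normalized CPM divided by the length of all annotated exons. At baseline Itgb1 had the highest level, 207 ± 16.9 CPM per kb (SD, n = 6 libraries of both substrains), followed by Itga3 at 182 ± 28.2. The libraries of these genes overlapped, although Itgb1 was above Itga3 in 11 of the 12 libraries of the series. Itgb5 came next at 105 ± 18.0 CPM per kb (SD, n = 6) and Itga8 at 64.4 ± 9.15. Over the series Itgb5 was above Itga8 in 8 of the 12 libraries, and at Day 5 in ByJcl their means were 59.6 and 74.9. Itgav had a level of 26.6 ± 2.95 CPM per kb, Itga9 of 16.3 ± 1.66 and Itga5 of 10.6 ± 1.43 (SD, n = 6 each), and the libraries of each of these genes lay apart from those of the next. The lowest levels were those of Itgb8 (5.04 ± 1.27 CPM per kb), Itga1 (4.39 ± 0.922) and Itgb3 (1.30 ± 0.206), all SD with n = 6, and the libraries of Itgb8 and Itga1 overlapped. Thus at baseline the partner chains of the podocyte laminin receptor headed the order, and Itgb3, best known from platelets and osteoclasts, closed it. With the longest transcript as the length, the level of Itga1 was 8.41 CPM per kb and that of Itgb8 6.63, so the order of these genes depends on the length used. Of 21337 exon bases of Itga1, 2180 are shared with Mocs2 on the opposite strand. Libraries were strand-specific per the labels, but whether the counting used strand was not given in the sources used here, so it is open to which gene reads of the shared bases were counted.

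**Figure D1:**
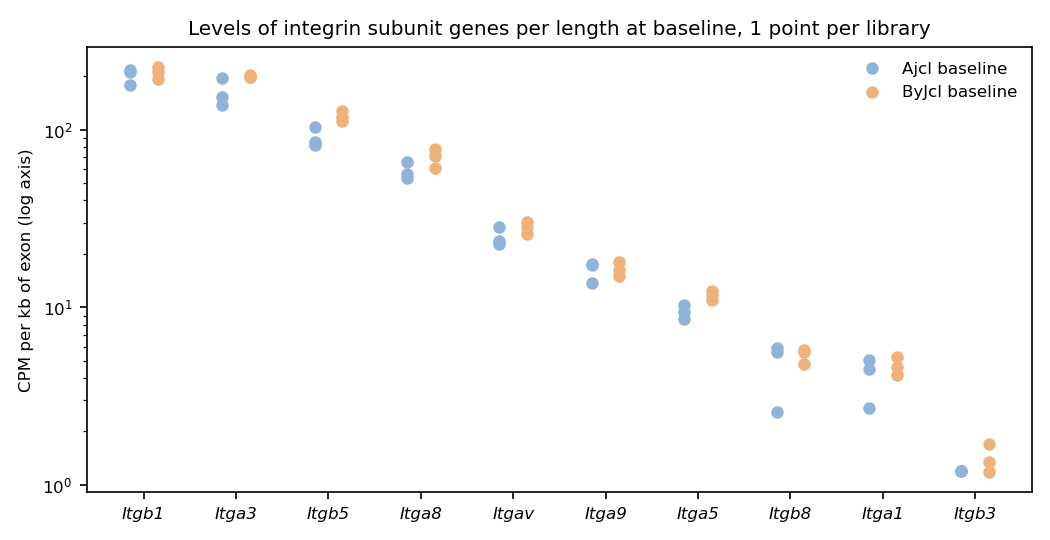
Level of each integrin subunit gene per length at baseline, in TMM-normalized CPM per kb of exon on a log axis, with 1 point per library and the substrains in separate colours. Levels run from about 207 for Itgb1 to 1.30 for Itgb3, and only the points of Itgb1 and Itga3 and of Itgb8 and Itga1 overlap between neighbours in the order.

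The first comparison asked whether the substrains differed before ADR. No integrin subunit passed the test at baseline. The edgeR quasi-likelihood test, with p-values adjusted over all 17002 genes by Benjamini and Hochberg's method, called 0 of the 10 and 27 of all genes (0.159%). DESeq2 also called 0 of the 10, where it called 0.631% of all genes. An unadjusted p below 0.05 was seen in edgeR for 3 of the 10 and for 8.34% of all genes. All 10 had a fitted log2 fold change (log2FC, ByJcl relative to Ajcl) above 0, from 0.02 for Itga9 to 0.40 for Itgb5, with a median of 0.22 against 0.01 over all genes tested. In the alternatives the values of Itga1, Itga9, Itgb1 and Itgb8 fell below 0 at least once. Library values of Itga3, Itga5 and Itgb5 did not overlap between the substrains, 3 of 10 where 14.5% of all genes did not overlap. Itga3 measured 803, 1138 and 897 CPM in Ajcl and 1186, 1161 and 1162 in ByJcl, a log2FC of 0.31 (edgeR SE 0.14, adjusted p = 0.593). The 3 ByJcl libraries lay within a narrow band just above the highest Ajcl library. Itgb5 measured 605, 732 and 584 CPM in Ajcl and 904, 796 and 829 in ByJcl, a log2FC of 0.40 (edgeR SE 0.15, adjusted p = 0.573). Summed podocyte markers moved with these genes, at 17564 to 24305 CPM in Ajcl and 22193 to 25571 in ByJcl, and their part in the result was not tested. None of the 12 podocyte markers was called at baseline, all 12 had a log2FC above 0 (median 0.22), and 0 had an unadjusted p below 0.05 in edgeR. Endothelial and mesangial markers had smaller medians (0.16 and 0.18), as had smooth muscle (-0.13) and parietal epithelial markers (-0.06), while tubular and leukocyte markers differed by more. All 6 distal nephron markers had a log2FC below 0 (median -1.45, 3 with an unadjusted p below 0.05), at sums of 551 to 1659 CPM in Ajcl and 141 to 555 in ByJcl. All 8 proximal tubule markers also had a log2FC below 0 (median -0.68). All 8 leukocyte markers had one above 0 (median 0.87, 4 with an unadjusted p below 0.05), at sums of 38.0 to 61.5 CPM in Ajcl and 68.0 to 115 in ByJcl. None of these markers was called by edgeR, and their part in the result was not tested.

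ADR in ByJcl gave the clearest changes of integrin subunits. Itgb1, Itgb3 and Itga5 rose and Itgb5 fell between baseline and Day 5, 4 of the 10 genes, where 10.6% of all genes tested were called (5.75% higher and 4.83% lower). The other 6 genes did not pass. Itgb5 fell to 49.9% of its baseline level, and Itgb1 reached 159% of it. The promoters of the called genes that have an entry in RefSeq are shown here because these genes moved in the same comparison. Each is the 250 bases before the gene's start, from RefSeq on GRCm38.p6 (the counts and gene positions are on GRCm39), read in the direction of the gene. Itga5 lies at chr15:103366792-103367041 on the minus strand, Itgb1 at chr8:128685404-128685653 and Itgb5 at chr16:33829415-33829664, both on the plus strand. Capitals mark matches on either strand to GGGCGG, the GC box of SP1, or GGAATG, the core of the TEAD motif.
Itga5: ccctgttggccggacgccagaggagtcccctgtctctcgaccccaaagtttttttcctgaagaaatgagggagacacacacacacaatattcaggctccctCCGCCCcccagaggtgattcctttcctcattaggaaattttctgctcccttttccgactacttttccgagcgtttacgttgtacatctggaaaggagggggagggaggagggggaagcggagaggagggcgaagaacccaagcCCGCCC
Itgb1: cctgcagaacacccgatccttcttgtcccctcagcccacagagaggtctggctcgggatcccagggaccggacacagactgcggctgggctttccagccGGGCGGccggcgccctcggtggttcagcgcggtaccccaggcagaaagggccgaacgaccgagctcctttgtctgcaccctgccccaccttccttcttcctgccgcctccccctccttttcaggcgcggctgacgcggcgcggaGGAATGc
Itgb5: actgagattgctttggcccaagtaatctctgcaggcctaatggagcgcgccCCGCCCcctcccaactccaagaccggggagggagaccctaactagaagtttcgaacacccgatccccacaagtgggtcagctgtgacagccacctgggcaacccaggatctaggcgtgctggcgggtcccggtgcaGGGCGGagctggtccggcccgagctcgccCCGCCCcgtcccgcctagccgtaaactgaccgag

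The GC box was found in each of these 3 windows, at 2 places in Itga5, 1 in Itgb1 and 3 in Itgb5. Over all 32851 RefSeq windows of the same length, 32.7% hold GGGCGG or its reverse complement. Of the 10 windows of the 9 members with an entry, 5 hold it. GGAATG was found in 1 of the 10, that of Itgb1, where 12.6% of all windows hold it. Neither TGANTCA, the AP-1 motif (6.75% of all windows), nor TATAAA, the TATA box (12.4%), was found in any of the 10. The motifs do not overlap one another. The windows of Itgb5, which fell, and of Itgb1 and Itga5, which rose, thus share the GC box. Itgb3, which also rose, has no entry, and the other windows with the GC box are those of Itga3, which was not called. GC content was 65.2% in Itgb5, 68.0% in Itgb1 and 55.6% in Itga5, against a median of 52.4% over all windows.

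Itgb5, the vitronectin-binding partner of Itgav, lies on chromosome 16 of GRCm39 from 33649988 to 33771137. In ByJcl it measured 904, 796 and 829 CPM at baseline and 452, 388 and 421 CPM at Day 5. Every Day 5 library was far below every baseline library. Its log2FC was -1.003 (edgeR SE 0.15, 95% CI -1.33 to -0.68, adjusted p = 0.00307). The call held in each fit that left out 1 of the 11 libraries, with log2FC between -1.05 and -0.95. In Ajcl it measured 605, 732 and 584 CPM at baseline and 645 and 455 at Day 5, with 504 in the library left out. These groups overlapped, with a log2FC of -0.22 (edgeR SE 0.16, 95% CI -0.58 to 0.14, adjusted p = 0.743). It was -0.51 without Ajcl Day 5 replicate 2 and -0.00083 without replicate 3, so a single library decides this value.

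Itgb1, the common partner of most alpha chains, lies on chromosome 8 from 129411876 to 129460618. In ByJcl it measured 1344, 1149.9 and 1271 CPM at baseline and 1816, 2215 and 1941 at Day 5, so that the groups were well apart. Its log2FC was 0.67 (edgeR SE 0.13, 95% CI 0.38 to 0.95, adjusted p = 0.00999). In Ajcl the libraries overlapped, at 1269, 1294 and 1074 CPM at baseline and 1283 and 1458 at Day 5 (1127 in the library left out). The log2FC there was 0.18 (edgeR SE 0.14, 95% CI -0.14 to 0.49, adjusted p = 0.769).

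Itgb3, on chromosome 11 from 104498826 to 104561302, was low and uneven. In ByJcl it measured 7.81, 11.3 and 8.88 CPM at baseline and 12.1, 59.0 and 20.9 CPM at Day 5, the counts behind them being 360 to 532 and 547 to 2568. Replicate 2 stood far above the other ByJcl Day 5 libraries, although all 3 exceeded the baseline range. The log2FC was 1.72 (edgeR SE 0.45, 95% CI 0.73 to 2.71, adjusted p = 0.0342), and without replicate 2 it was 0.82 (adjusted p = 0.0970). In Ajcl it measured 7.88, 7.89 and 7.94 CPM at baseline and 15.1 and 11.2 at Day 5, with 8.25 in the library left out. The Ajcl log2FC of 0.73 did not pass (edgeR SE 0.49, adjusted p = 0.710). Itgb3 is abundant in platelets, where its partner is Itga2b. The summed platelet markers (6 genes, 5 of them tested and 0 called) came to 1.71 to 3.26 CPM at baseline in ByJcl and to 4.38, 7.47 and 4.41 CPM at Day 5, with the highest of these sums in the library highest for Itgb3. In Ajcl at Day 5 the order differed, with sums of 2.71 and 6.06 CPM in the fitted libraries, where Itgb3 measured 15.1 and 11.2, and the highest sum of the 12 libraries, 7.69 CPM, in the library left out, where Itgb3 measured 8.25. The part of platelets in the result was not tested. Itga2b itself stayed between 0.427 and 0.638 CPM per kb in the 12 libraries.

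Itga5, the fibronectin receptor chain, lies on chromosome 15 from 103252713 to 103275270. In ByJcl it measured 62.5, 66.1 and 58.2 CPM at baseline and 84.9, 90.4 and 81.7 at Day 5, without overlap. Its log2FC was 0.46 (edgeR SE 0.12, 95% CI 0.19 to 0.73, adjusted p = 0.0373), the smallest of the called changes. In Ajcl it measured 45.8, 54.6 and 50.2 CPM at baseline and 43.7 and 60.2 at Day 5 (46.3 in the library left out), a log2FC of 0.05 (edgeR SE 0.14, 95% CI -0.25 to 0.35, adjusted p = 0.944).

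Of the 4 calls in ByJcl, those of Itgb1, Itgb3 and Itga5 rested in part on single libraries, and that of Itga5 was also lost with a replicate block (adjusted p = 0.0585, edgeR). Without ByJcl baseline replicate 1 the calls were Itgb1 and Itgb5, and likewise without baseline replicate 3 or Day 5 replicate 2, 2 calls each. Without baseline replicate 2 only Itgb5 was called (1 call), Itgb1 then having an adjusted p of 0.0538 in edgeR. Itga5 was also lost without Day 5 replicate 1, where Itgav was gained, and Itgb8 was gained as the fifth call without Ajcl baseline replicate 1. With all 12 libraries the same 4 genes were called, where 7.21% of all genes were, and DESeq2 called them and Itgav, where it called 15.8% of all genes.

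Itgav, on chromosome 2 from 83554403 to 83637260, measured 374, 320.2 and 349.9 CPM at baseline in ByJcl and 396, 523 and 461 at Day 5. The groups did not overlap, but the log2FC of 0.40 missed the threshold (edgeR SE 0.13, 95% CI 0.12 to 0.69, adjusted p = 0.0707) and had an adjusted p of 0.0192 in DESeq2. In Ajcl it measured 292, 351 and 281 CPM at baseline and 359 and 382 at Day 5, with 311 in the library left out. Its log2FC was 0.26 there (edgeR SE 0.14, 95% CI -0.05 to 0.58, adjusted p = 0.606). With the substrains averaged, Itgav stood at the edge of the threshold with a log2FC of 0.33 (edgeR SE 0.10, adjusted p = 0.0499), and this call was lost in 9 of the 11 fits that left out a library and with all 12 libraries (adjusted p = 0.0788). Itgb1 (0.42), Itgb3 (1.22) and Itgb5 (-0.61) were also called in that average, in which 10.4% of all genes were called. With a replicate block the averaged calls of Itgav (adjusted p = 0.0897, edgeR) and Itgb3 (adjusted p = 0.0586, edgeR) were lost. The averaged call of Itgb3 was also lost in 8 of the 11 fits that left out a library, and that of Itgb1 in 2, without Ajcl Day 5 replicate 3 (adjusted p = 0.1099, edgeR) and without ByJcl baseline replicate 2 (adjusted p = 0.0539, edgeR).

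Itgb8, the partner of Itgav in the activation of latent TGF-beta, lies on chromosome 12 from 119121748 to 119202584. It measured 64.7, 63.1 and 53.9 CPM at baseline in ByJcl and 29.3, 34.8 and 50.8 at Day 5, without overlap. The log2FC of -0.66 did not pass (edgeR SE 0.28, 95% CI -1.28 to -0.04, adjusted p = 0.160). Ajcl baseline replicate 1 (29.1 CPM) stood apart from the other baseline libraries of its group (63.2 and 66.6), and the Ajcl Day 5 libraries gave 56.1 and 46.8 CPM, with 26.1 in the library left out.

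Itga9, on chromosome 9 from 118435722 to 118730072, measured 126, 139 and 116 CPM at baseline in ByJcl and 145, 235 and 140.5 at Day 5. The groups barely separated and replicate 2 was again the highest. The log2FC of 0.45 did not pass (edgeR SE 0.19, adjusted p = 0.158), and without replicate 2 it was 0.17. In Ajcl the libraries overlapped, at 106, 135 and 134 CPM at baseline and 103 and 124 at Day 5.

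The receptor chains most tied to podocytes and mesangial cells, Itga3, Itga8 and Itga1, gave small fitted changes that did not pass. Itga3, on chromosome 11 from 94935296 to 94967682, measured 1186, 1161 and 1162 CPM at baseline in ByJcl and 1298, 1279.7 and 1108 at Day 5, a log2FC of 0.07 (edgeR SE 0.14, 95% CI -0.23 to 0.37, adjusted p = 0.785). Itga8, on chromosome 2 from 12110900 to 12307214, measured 764, 843 and 662 CPM and then 964, 623 and 839, a log2FC of 0.10 (SE 0.17, 95% CI -0.27 to 0.46). Itga1, on chromosome 13 from 115089632 to 115238677, measured 88.5, 113 and 99.0 CPM and then 77.7, 93.3 and 106, a log2FC of -0.12 (SE 0.20, 95% CI -0.56 to 0.33). In each of these genes the ByJcl baseline and Day 5 libraries overlapped. In Ajcl their log2FC were 0.10, 0.13 and 0.15, again with overlap, and all 3 fell below 0 when the less pure library was added (-0.05, -0.05 and -0.12). That library was the lowest of the 12 for Itga1 (49.1 CPM), Itga3 (732) and Itga8 (474).

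**Figure D2:**
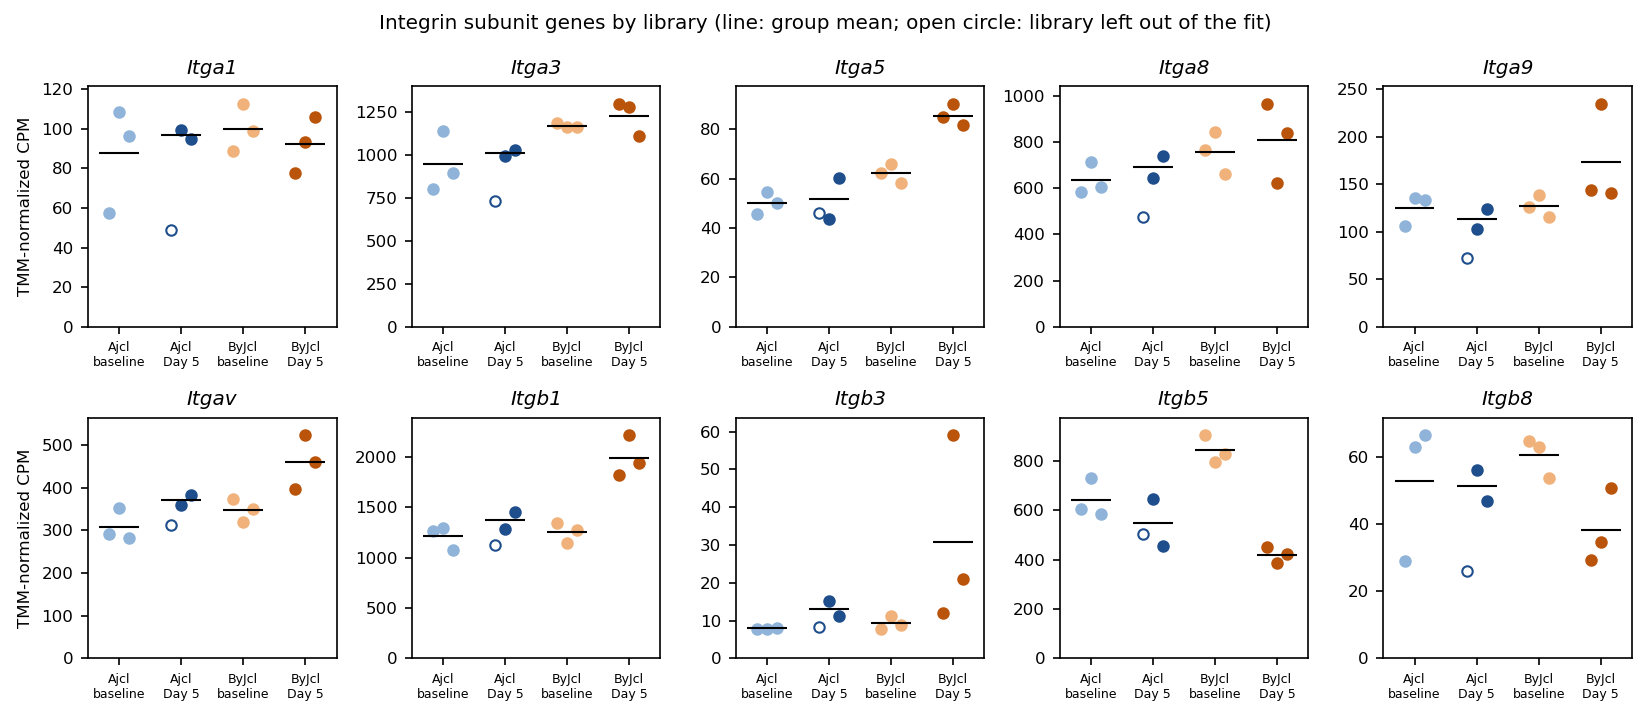
TMM-normalized CPM of the 10 integrin subunit genes in each of the 12 libraries, by substrain and time point, with the group mean as a line and the Ajcl Day 5 library left out of the fit as an open circle. In ByJcl the Day 5 points of Itgb5 (388 to 452 CPM) sit below the baseline points (796 to 904) and those of Itgb1 (1816 to 2215) above them.

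In Ajcl no integrin subunit passed the test after ADR. edgeR called 0 of the 10 where 0.312% of all genes were called (53 of 17002), and DESeq2 called 0 of the 10 where it called 1.77% of all genes. An unadjusted p below 0.05 was seen for 0 of the 10 and for 9.8% of all genes in edgeR. Only Itgav and Itgb3 had libraries that did not overlap between baseline and Day 5, 2 of 10 where 25.1% of all genes did not overlap. In ByJcl 7 of 10 did not overlap, where the share over all genes was 33.4%. The median log2FC of the 10 genes was 0.11 in Ajcl and 0.25 in ByJcl, beside -0.01 and 0.01 over all genes.

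At Day 5 the substrains were compared directly. edgeR called 0 of the 10 genes (28 of 17002 genes, 0.165%, were called), and DESeq2 called Itga5 and Itgb1, 2 of the 10, where it called 3.49% of all genes. In edgeR 5 of the 10 had an unadjusted p below 0.05, as had 14.0% of all genes. Itga5 had the smallest adjusted p, with 84.9, 90.4 and 81.7 CPM in ByJcl against 43.7 and 60.2 in Ajcl. Its log2FC was 0.72 (edgeR SE 0.14, 95% CI 0.41 to 1.03, adjusted p = 0.0823), it was 0.78 with all 12 libraries (adjusted p = 0.0270, edgeR, where 0.433% of all genes were called), and DESeq2 gave an adjusted p of 0.000883. The comparison rests on 2 Ajcl Day 5 libraries, and leaving out either one leaves a single library whose spread is assumed to be that of the other groups. Without replicate 3 the log2FC was 0.97 (adjusted p = 0.0188, edgeR) and without replicate 2 it was 0.51 (adjusted p = 0.983, edgeR). The adjusted p in edgeR was 0.159 with the replicate block and 0.380 with the Day 5 libraries alone. Itgb1 had a log2FC of 0.54 (edgeR SE 0.15, adjusted p = 0.166) and an adjusted p of 0.00737 in DESeq2. For both genes every ByJcl library was above every fitted Ajcl library. Itgb5 was lower in each ByJcl library than in each of the 2 fitted Ajcl libraries, by a log2FC of -0.39 (edgeR SE 0.16, adjusted p = 0.325), after the opposite sign at baseline. The nearest libraries measured 452 and 455 CPM, and the log2FC was -0.11 without Ajcl Day 5 replicate 2 and -0.61 without replicate 3. Marker levels differed in this comparison too, and their part in the result was not tested. Of 12 podocyte markers 11 had a log2FC below 0 (median -0.66, 7 with an unadjusted p below 0.05, 0 called in edgeR), at sums of 18770 and 14192 CPM in the fitted Ajcl libraries and 11323 to 15315 in ByJcl. Distal nephron markers had a median log2FC of -1.46, proximal tubule markers of -0.95 and leukocyte markers of 1.27, with 0 called in each list, and 1 of 6 smooth muscle markers, Tagln, was called higher in ByJcl. Of the 10 genes 6 did not overlap, where 33.4% of all genes did not.

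**Figure D3:**
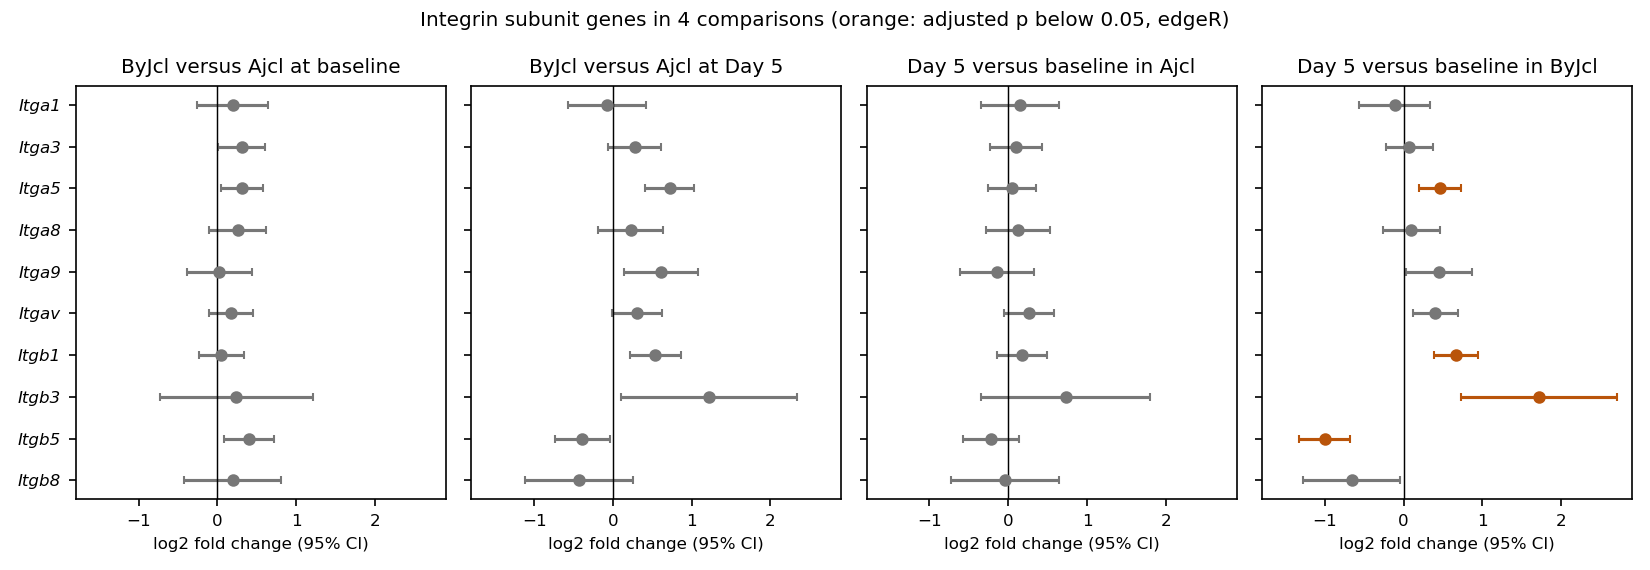
Fitted log2 fold change of each integrin subunit gene with its 95% confidence interval in 4 comparisons, from edgeR over 11 libraries, with calls at an adjusted p below 0.05 in orange. The 4 calls lie in the comparison of Day 5 with baseline in ByJcl, at -1.003 for Itgb5, 0.67 for Itgb1, 1.72 for Itgb3 and 0.46 for Itga5.

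Whether ADR acted differently in the substrains was tested with an interaction term, and no gene passed in edgeR. edgeR called 0 of 17002 genes (0.0%), with an unadjusted p below 0.05 for 1363 (8.02%), among them Itgb5, Itgb1 and Itga5. DESeq2 called 22 genes (0.143%) and 0 of the 10. Among the 10 genes the smallest interaction p was that of Itgb5, with a log2FC difference of -0.78 (ByJcl minus Ajcl, SE 0.22, 95% CI -1.26 to -0.31, unadjusted p = 0.00397, adjusted p = 0.620, edgeR). Itgb1 had 0.49 (SE 0.19, 95% CI 0.06 to 0.91) and Itga5 0.41 (SE 0.18, 95% CI 0.003 to 0.82), with adjusted p of 0.620 and 0.621 in edgeR. Without Ajcl Day 5 replicate 2 the interactions of Itgb5 and Itga5 were -0.49 and 0.22, and without replicate 3 they were -0.995 and 0.68. The calls in ByJcl and their absence in Ajcl are therefore not shown to be a difference between the substrains, and only 2 Ajcl Day 5 libraries were fitted.

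The balance among the beta subunits was described as the share of each in the sum of the 4 beta genes, in CPM per kb. The shares of a library are parts of the same sum, so those of Itgb1 and Itgb5 cannot move independently. At baseline Itgb1 made up 66.3 to 70.4% of the sum in Ajcl and 61.6 to 63.3% in ByJcl, and Itgb5 28.4 to 31.7% and 34.9 to 36.1%. At Day 5 in ByJcl the share of Itgb5 was 17.2, 12.6 and 15.2%, and that of Itgb1 81.6, 84.7 and 82.9%. In the fitted Ajcl Day 5 libraries Itgb5 took 29.1 and 20.5%, the first of them within the Ajcl baseline range. Itgb8 and Itgb3 together stayed minor, with at most 2.19% for Itgb8 and 2.04% for Itgb3 in any library. Ratios of counts within a library, which do not depend on the scaling of libraries, were compared by two-sided exact permutation tests in 20 comparisons. None could pass, since an exact test of 3 against 3 libraries cannot go below p = 0.1 and of 3 against 2 not below 0.2, and every adjusted p was at least 0.5. Itgb5 to Itgb3 was 116, 70.7 and 93.4 at baseline in ByJcl and 37.4, 6.58 and 20.2 at Day 5, without overlap (exact permutation p = 0.1, the smallest possible). In Ajcl it was 76.8, 92.7 and 73.5 at baseline and 42.8 and 40.8 at Day 5, also without overlap (exact permutation p = 0.2, the smallest possible). Itgav to Itgb1 went from 0.278, 0.278 and 0.275 to 0.218, 0.236 and 0.237 in ByJcl, and Itgb8 to Itgav from 0.173, 0.197 and 0.154 to 0.0741, 0.0666 and 0.1103. In Ajcl both ratios overlapped between the times. Itgav to Itgb1 was 0.230, 0.271 and 0.262 at baseline and 0.280 and 0.262 at Day 5. Itgb8 to Itgav was 0.0994, 0.180 and 0.236 and then 0.157 and 0.123. Itga8 to Itga3 lay between 0.487 and 0.757 in all libraries with no separation of the groups.

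**Figure D4:**
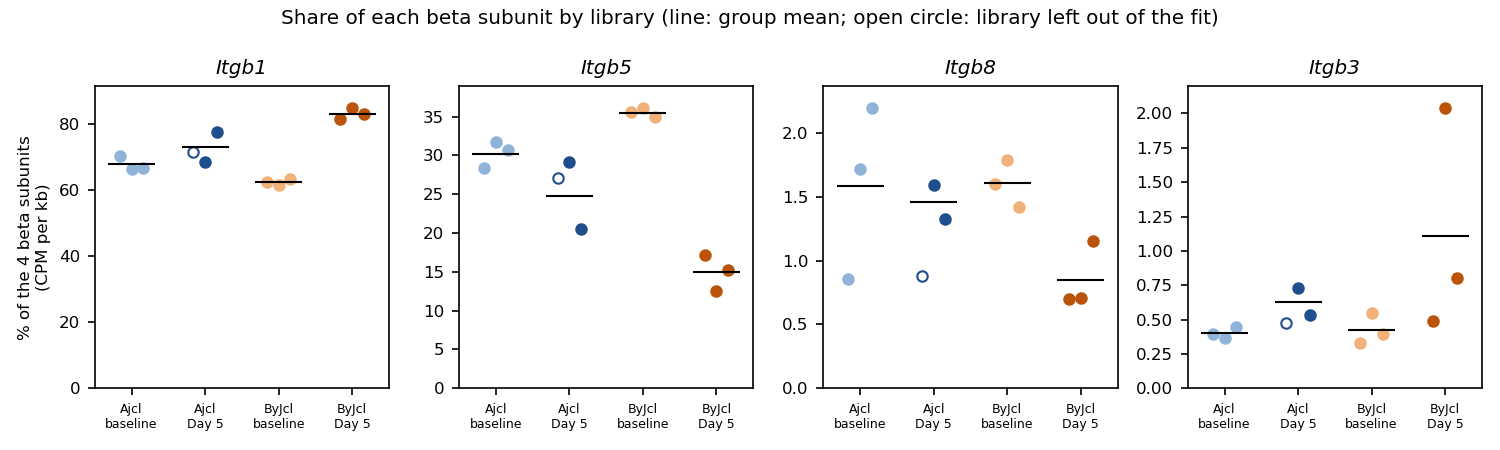
Share of each beta subunit in the sum of the 4 beta genes (CPM per kb, in percent) in each library, with group means as lines and the Ajcl Day 5 library left out of the fit as an open circle. In ByJcl the share of Itgb5 lies at 34.9 to 36.1% at baseline and 12.6 to 17.2% at Day 5. That of Itgb1 moves the opposite way, and as parts of the same sum these shares are not independent.

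Most podocyte markers fell in ByJcl after ADR. Their sums were 22193 to 25571 CPM at baseline in ByJcl and 15315, 11323 and 11838 CPM at Day 5. Of the 12 podocyte markers 10 fell, 1 rose and 1 did not pass in ByJcl, with a median log2FC of -1.20. In Ajcl 0 of the 12 were called after ADR (5 with an unadjusted p below 0.05 in edgeR, as had 9.8% of all genes), at a median of -0.40. Of 6 smooth muscle markers 1 rose in ByJcl, Tagln, an actin-binding protein, from 116, 105 and 159 CPM at baseline to 296, 355 and 290.2 at Day 5. The other 5 did not pass, and the median log2FC of the 6 was 0.11. Of 10 mesangial markers 1 rose and 1 fell, of 10 endothelial markers 2 fell, and of 8 leukocyte markers 1 rose in ByJcl, beside 5.75% of all genes that rose and 4.83% that fell. Of 6 parietal epithelial markers 1 rose and 1 fell, and 0 of 8 proximal tubule and 0 of 6 distal nephron markers were called. Itga3, the podocyte laminin receptor chain, was not called in ByJcl after ADR, with a log2FC of 0.07 (edgeR SE 0.14). Which cells of the glomerular fraction its RNA came from was not tested. On the log2 scale over the 11 libraries, Itgb5 had a Pearson correlation of 0.968 with the summed podocyte markers. It was -0.802 for Itgb1, -0.765 for Itgb3, -0.566 for Itga5 and -0.076 for Itga3. With the summed smooth muscle markers it was -0.744 for Itgb5, 0.959 for Itgb1, 0.791 for Itgb3 and 0.797 for Itga5. These libraries share groups, and the values carry no p. The part of cell composition in the changes of Itgb1, Itgb3, Itgb5 and Itga5 was not tested.

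The other integrin subunit genes were followed as a group of 16, of which 15 could be tested. In ByJcl 1 of the 15 was called after ADR, Itga6, a laminin receptor chain, where 10.6% of all genes were called. It measured 112, 116 and 101 CPM at baseline and 81.9, 67.4 and 68.3 at Day 5, with no overlap, a log2FC of -0.59 (edgeR SE 0.11, adjusted p = 0.00785). In Ajcl it measured 109.6, 125 and 133 CPM and then 80.9 and 82.9, a log2FC of -0.58 of almost the same size that did not pass (edgeR SE 0.12, adjusted p = 0.102) and had an adjusted p of 0.00488 in DESeq2. With the substrains averaged, Itga6 (-0.59) and Itga7 (-0.41), another laminin receptor chain, were called, 2 of the 15 where 10.4% of all genes were called. The median log2FC of the 15 genes in ByJcl was -0.35, and 0 of the 15 were called between the substrains at either time.

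Among 30 genes of integrin ligands, 6 rose and 2 fell in ByJcl after ADR and 22 did not pass, where 5.75% of all genes rose and 4.83% fell, and the median log2FC of the 30 was 0.003. The basement membrane collagens moved in both directions. Col4a2, the chain of the embryonic and mesangial collagen network, measured 440.2, 500.4 and 389.8 CPM at baseline and 1364, 989 and 776 at Day 5, a log2FC of 1.23 (edgeR SE 0.25, adjusted p = 0.0122). Its partner Col4a1 had a log2FC of 0.98 (edgeR SE 0.21, adjusted p = 0.0155). Col4a3, a chain of the mature network that podocytes make, measured 2118, 1704 and 1714 CPM and then 1112, 1077 and 1050.2, a log2FC of -0.77 (edgeR SE 0.18, adjusted p = 0.0213), and this call was lost with all 12 libraries (adjusted p = 0.117). Lamb1, a laminin beta chain of the immature basement membrane, fell by 0.78 on the log2 scale (adjusted p = 0.0282, edgeR). Fbln5, an elastic fibre protein that binds integrins, rose from 29.6, 27.9 and 25.9 to 42.7, 61.1 and 42.1 CPM, a log2FC of 0.81 (edgeR SE 0.14, adjusted p = 0.00674). In Ajcl 1 of the 30 was called, where 0.312% of all genes were. It was Angptl4, a secreted lipase inhibitor that binds integrins, at 15.9, 18.4 and 18.0 CPM at baseline and 100.7 and 99.5 at Day 5. Its log2FC was 2.52 (edgeR SE 0.39, adjusted p = 0.0236), and in ByJcl it was 1.47 (edgeR SE 0.35, adjusted p = 0.0239). None of the 30 was called between the substrains at baseline, where 8 had an unadjusted p below 0.05 in edgeR (8.34% of all genes had) and 25 a log2FC above 0. At Day 5 edgeR again called 0 of the 30, with 8 at an unadjusted p below 0.05 (14.0% of all genes) and 18 above 0. The study, which used DESeq2, reports Col4a1 and Col4a2 as significantly higher in ByJcl at Day 5.

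Among 30 genes that activate integrins or link them to actin, 5 rose and 2 fell in ByJcl after ADR and 23 did not pass, beside the same 5.75% and 4.83% over all genes, and the median log2FC of the 30 was 0.15. Ilk, the kinase-like scaffold bound to the tail of Itgb1, measured 225, 226 and 231 CPM at baseline and 315, 327 and 314 at Day 5, tight groups with a log2FC of 0.49 (edgeR SE 0.10, adjusted p = 0.0115). Its binding partner Parva went the other way, from 909, 768 and 795 to 511, 370.2 and 400.3 CPM, a log2FC of -0.95 (edgeR SE 0.16, adjusted p = 0.00604). Slc3a2, which associates with beta chains, had a log2FC of 0.57 (adjusted p = 0.0133, edgeR), and Zyx, a focal adhesion protein, of 0.45 (adjusted p = 0.0266, edgeR). Tns3, a tensin that binds beta tails, fell by 0.63 on the log2 scale (adjusted p = 0.0437, edgeR) and was not called with all 12 libraries (adjusted p = 0.133). In Ajcl 0 of the 30 were called after ADR, with 2 at an unadjusted p below 0.05 in edgeR (9.8% of all genes). Between the substrains 0 of the 30 were called by edgeR at either time. An unadjusted p below 0.05 was seen for 1 at baseline (8.34% of all genes) and 11 at Day 5 (14.0%), with 22 and 24 above 0. No interaction was called in either list.

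**Figure D5:**
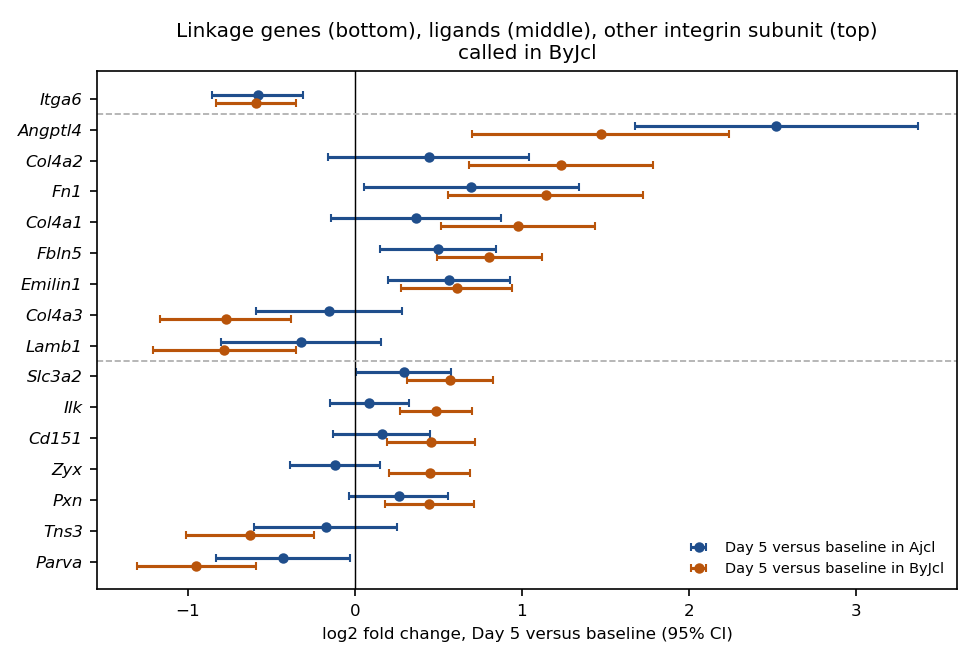
Log2 fold change from baseline to Day 5 with its 95% confidence interval, in Ajcl (blue) and ByJcl (orange), of the linkage genes, ligand genes and other integrin subunit that were called in ByJcl. Itga6 lies at almost the same value in both substrains (-0.58 and -0.59), and Col4a1 and Col4a2 lie above 0 while Col4a3 and Lamb1 lie below it.

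The genes whose profile over the 11 libraries was most like that of each member were found by the Pearson correlation of log2(CPM + 1) among 10074 genes with a mean of at least 10 CPM. These values describe libraries that share groups and depth and carry no p. For Itga5 they were Bcar1 (r = 0.977), Fblim1 (0.973) and Arhgdia (0.970), of which the first is a focal adhesion adaptor and the second a filamin-binding adhesion protein. For Itgb1 they were H3f3b (0.989), Tmem65 (0.989) and Rtn4 (0.986), and for Itgb5 Hoxc6 (0.980), Ston2 (0.979) and Septin11 (0.976). Itgav was most like Sdc4 (0.971), a matrix-binding syndecan, Atl3 (0.968) and Dcdc2a (0.966), and Itgb3 most like Acap2 (0.960), Mbnl3 (0.953) and Tgif1 (0.953). The closest profile was that of Ptpn1 for Itga3 (0.953), Iglon5 for Itga8 (0.959), Gosr2 for Itga9 (0.937), Tnks for Itga1 (0.953) and Lyst for Itgb8 (0.961). No member was among the 3 genes most like another member.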

How the data were processed

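Gene expression was analysed from the whole-number counts that the authors deposited per gene symbol, without normalization, in separate tables for baseline and Day 5. The authors ran FastQC for read quality, Trimmomatic for trimming, STAR for alignment to GRCm39 and featureCounts for counting. The annotation and the strand and pair settings were not given in the sources used here. Between 77.1 and 82.9% of counts from 1 to 49 were even, so counts divided by 2 were an alternative. If both mates of a pair were counted, which the sources used here do not say, the printed counts and totals are up to 2 times the number of fragments. All count columns were used, and total counts per library ranged from 42198416 to 54687045, so that precision was limited by the number of libraries.

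Counts were fitted in R 4.3.3 with edgeR 4.0.16 (filterByExpr, TMM, quasi-likelihood test, 1 coefficient per group, 7 residual degrees of freedom) over 11 libraries, and p-values were Benjamini-Hochberg adjusted over 17002 genes with calls below 0.05. DESeq2 1.42.0, RLE scaling, 2 other filters, all 12 libraries, a replicate block, fits per time point and leaving out each library were alternatives. Script steps were tested on simulated data. Gene positions and exon lengths are from GENCODE on GRCm39 and promoters from RefSeq on GRCm38.p6, which has no entry for Itgb3 among those used here. Ratios were compared by exact permutation tests in SciPy 1.17.1.

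The members, the lists and the tests were chosen with earlier results of these data known. Named are all members and, in each list and comparison, at most 3 called genes per direction by adjusted p, and the 3 genes most like each member. Protein sequences were not used here. No sample was without a group.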

Additional observations from a re-analysis of the deposited data

How the results depend on the processing

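The 4 changes in ByJcl kept their direction under every alternative. The numbers of called genes varied more, and the cause was not tested. With DESeq2 the number of genes called was 101 at baseline, 535 at Day 5, 301 for ADR in Ajcl and 22 for the interaction (0 in edgeR), and 2 integrin subunits were called at Day 5. Without a filter on low counts 56 genes were called at Day 5 and 99 for ADR in Ajcl. With all 12 libraries 72 genes were called at Day 5, 1 of them an integrin subunit, and 1197 for ADR in ByJcl. Fits of each time point alone called 15 genes at baseline and 6 at Day 5. Correlations of same-numbered deviations from group means ran from -0.238 to 0.374, with 4 of 15 pairs above 0.1. Deviations within a group of 2 or 3 libraries constrain one another, so these values cannot show whether same-numbered libraries shared a batch. With the replicate block 26 genes were called for ADR in Ajcl and 2 integrin subunits, Itgb1 and Itgb5, in the average of the substrains, and Itga5 in ByJcl had an adjusted p of 0.0585 in edgeR.

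Leaving out 1 library at a time gave 12 to 29 called genes at baseline, 9 to 218 at Day 5 (lowest without Ajcl Day 5 replicate 2, highest without replicate 3), 11 to 180 for ADR in Ajcl (without Ajcl Day 5 replicate 3 and 2), 680 to 2056 for ADR in ByJcl (without ByJcl Day 5 replicate 2 and Ajcl baseline replicate 1), 0 to 5 for the interaction and 531 to 1816 for the average. Called integrin subunits numbered 0 to 1 at Day 5, 1 to 5 for ADR in ByJcl and 1 to 4 for the average. Among log2FC that were not called, those at baseline ranged from -0.064 to 0.38 for Itga1, -0.11 to 0.086 for Itga9, -0.030 to 0.11 for Itgb1 and -0.13 to 0.40 for Itgb8. Those for ADR in Ajcl ranged from -0.091 to 0.33 for Itga1, -0.019 to 0.25 for Itga3 and -0.21 to 0.25 for Itga5. That of Itga8 ranged from 0.013 to 0.22 for ADR in Ajcl and from -0.046 to 0.25 for ADR in ByJcl. For ADR in ByJcl, Itga1 ranged from -0.21 to -0.0015 and Itga3 from 0.035 to 0.16. Without Ajcl Day 5 replicate 3 that of Itgb1 in Ajcl was 0.069, without replicate 2 that of Itgb3 in Ajcl was 0.48, without Ajcl baseline replicate 1 that of Itga3 at baseline was 0.17, and without ByJcl Day 5 replicate 2 the called average of Itgb3 was 0.78. Among the log2FC given in the report, the sign turned with all 12 libraries for Itga9 at baseline (-0.0052, and -0.0055 with the time point alone) and for Itga1, Itga3, Itga5 and Itga8 for ADR in Ajcl (-0.12, -0.055, -0.020 and -0.046). With the longest transcript, levels at baseline in CPM per kb were 8.41 for Itga1, 12.7 for Itga5, 101 for Itga8, 44.4 for Itgav, 240 for Itgb1, 157 for Itgb5 and 6.63 for Itgb8.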

Other observations

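The integrin subunits of leukocytes were near the bottom of the range in these glomeruli. Itgb2, their common beta chain, had 0.890 to 3.28 CPM per kb in the baseline libraries, against 207 for Itgb1, and Itgal and Itgam, 2 of its alpha partners, had 0.677 to 1.47 and 0.375 to 0.988 CPM per kb. Itgad was listed at 0 in 6 of the 12 libraries and at most 0.0192 CPM per kb in the others. Itga4, a chain shared by leukocytes and other cells, reached 5.58 to 9.35 CPM per kb at baseline, above Itga1 and Itgb3. Itgad was too low to be tested, and none of Itgb2, Itgal, Itgam and Itga4 was called by edgeR in any of the 6 comparisons. At baseline Itgb2 measured 2.89 to 7.07 CPM in Ajcl and 8.39 to 10.6 in ByJcl. Libraries of Itgal and Itgam also did not overlap between the substrains, where 14.5% of all genes did not, and those of Itga4 overlapped.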
